A study of Mus musculus with 5 samples.

Results

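Cells carrying a mutant zinc finger 4 of Ikaros were set beside cells carrying a mutant zinc finger 1, by transcript level in Hardy fraction A of mouse bone marrow. Hardy fraction A is the earliest B lineage fraction in Hardy's sorting scheme. The comparison used 1 library of genotype Ikaros_ZnF4-/- (dF4) and 2 libraries of genotype Ikaros_ZnF1-/- (dF1 replicates 1 and 2), with 2 wt libraries for reference. All libraries came from mice of strain C57BL/6, 6 to 7 weeks old, and from mRNA-enriched total RNA of a fraction A sort that was not lineage depleted. The labels call the cells sorted proB cells. According to the design text the dF1 libraries are biological replicates and the dF4 library has low coverage, and the number of mice behind dF4 is not given. The compared set was every transcript with a gene symbol and a mean of at least 5 RPKM (reads scaled to transcript length and library total) over the dF4 library and both dF1 libraries. It held 8805 of the 26531 transcripts in the table, from 8360 gene symbols. Because dF4 is 1 library, its differences are described by size, with no test, and the genotype cannot be told apart from anything else particular to that library.

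Ikaros, encoded by Ikzf1, is a transcription factor needed for lymphoid development. Its amino-terminal zinc fingers bind DNA at sites built around the letters GGGAA, with the central fingers making the core contact and the outer fingers, 1 and 4, adding to binding at subsets of sites. A pair of fingers at the carboxyl end joins it to its relatives Aiolos, Helios and Eos. Ikaros is known both to activate and to silence genes, and it is found with the NuRD chromatin remodelling complex.

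The sequence just before the start site is shown for the 2 transcripts farthest above and the 2 farthest below dF1 among those whose promoter the RefSeq table of build GRCm38.p6 holds, so that the letters of the Ikaros core can be looked for directly. Each run is 250 bases on the plus strand, ending at the base before the start, with GGGAA and its reverse complement TTCCC in capitals. GGGAA contains GGAA, the core of ETS family factors. Faim3 lies at chr1:130865527-130865776, Elane at chr10:79886062-79886311, Siglech at chr7:55767934-55768183 and Havcr1, for the first of its 3 listed starts, at chr11:46739973-46740222.
Faim3: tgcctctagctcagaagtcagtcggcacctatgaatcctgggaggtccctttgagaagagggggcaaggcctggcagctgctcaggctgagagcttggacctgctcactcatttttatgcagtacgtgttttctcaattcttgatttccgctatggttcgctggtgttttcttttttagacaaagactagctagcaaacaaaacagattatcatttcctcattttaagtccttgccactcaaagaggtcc
Elane: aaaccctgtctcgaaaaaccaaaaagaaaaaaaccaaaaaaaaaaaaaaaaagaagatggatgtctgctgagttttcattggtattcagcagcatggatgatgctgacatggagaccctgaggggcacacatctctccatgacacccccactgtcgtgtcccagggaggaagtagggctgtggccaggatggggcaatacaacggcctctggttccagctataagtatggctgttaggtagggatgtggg
Siglech: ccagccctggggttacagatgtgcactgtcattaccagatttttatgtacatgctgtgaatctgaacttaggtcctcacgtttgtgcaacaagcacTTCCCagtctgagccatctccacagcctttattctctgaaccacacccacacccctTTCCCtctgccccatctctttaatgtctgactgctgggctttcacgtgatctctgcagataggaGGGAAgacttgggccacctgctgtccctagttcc
Havcr1: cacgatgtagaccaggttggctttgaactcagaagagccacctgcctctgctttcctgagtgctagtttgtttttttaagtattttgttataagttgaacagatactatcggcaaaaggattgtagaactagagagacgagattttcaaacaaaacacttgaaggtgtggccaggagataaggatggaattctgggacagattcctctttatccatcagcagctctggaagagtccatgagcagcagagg
The Siglech window held the letters 3 times, 1 time as GGGAA and 2 times as TTCCC, and the other 3 windows held 0. Over windows of the same length, on both strands, the letters were in 59.8% of the 585 genes higher in dF4 that have an entry and in 54.6% of the 568 genes lower in dF4. They were in 58.5% of the 6702 compared genes with an entry and in 55.9% of all 27025 genes of the promoter table. A match in so short a motif is a description of the letters and not a binding site.

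The dF4 library differed from the others in depth and make-up. Its low values were multiples of 1.675 RPM (RPKM times transcript length in kilobases), an estimate of about 597000 reads in all. No such step was found in the dF1 and wt libraries, so their depth is unknown. Beside dF4 values, exact 95% Poisson intervals on the estimated reads are given, which cover counting error only. The 10 most abundant transcripts held 12.5% of the summed RPKM in dF4 against 5.62% to 5.78% in the others. Across the compared transcripts, which are not independent replicates, Pearson's r on log2(RPKM + 1) was 0.974 between the dF1 libraries, and 0.62 and 0.676 between dF4 and dF1 replicates 1 and 2. The dF1 libraries were of different sex. Xist, the RNA of the inactive X chromosome, was at 93.2 RPKM in dF1 replicate 1 and listed at 0 in dF1 replicate 2 and in dF4. Eif2s3y, a Y-linked gene, was at 0, 37.5 and 41.4 RPKM in the same order, so dF4 matched dF1 replicate 2 in sex. Over 5 sex-linked transcripts, the median of dF4 minus the wt mean was 3.104 on log2(RPKM + 1), and that of dF4 minus dF1 replicate 1 was 3.104. By this measure wt sided with dF1 replicate 1, so a dF4 difference from wt may include one of sex. Since these are bulk samples, fewer cells of a type and less RNA per cell cannot be told apart in any result that follows.

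The dF4 library stood apart from dF1 over many transcripts in both directions. A transcript was counted as higher when dF4 lay at least 1 log2 unit above the higher dF1 library on log2(RPKM + 1), which is 2-fold on that scale, and as lower when it lay at least 1 below the lower dF1 library. By this rule 776 transcripts (8.81%) were higher and 776 (8.81%) were lower in dF4, from 757 and 745 symbols. Within the dF1 pair, 99 transcripts (1.12%) lay at least 1 apart, 78 of them higher in replicate 2, and within the wt pair 191 (2.17%). These are distances between single libraries and not from the nearer library of a pair. By the same measure dF4 lay at least 1 from dF1 replicate 1 for 1955 transcripts and from replicate 2 for 1723. The median difference of dF4 from the dF1 mean over all compared transcripts was 0.004. At a distance of at least 2 log2 units, which is 4-fold, 326 transcripts were higher and 241 lower, and at 4 log2 units, which is 16-fold, 94 and 35. The Poisson interval of dF4 lay clear of both dF1 libraries for 753 of the transcripts counted as higher and for 680 of those counted as lower. The interval is built on the same dF4 value that set the call and leaves out error in dF1. It therefore only marks calls that rest on few reads and is no separate evidence for them. Of the lower transcripts, 60 were listed at 0 in dF4.

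Both counts are shaped by the filter, which includes dF4. Of the 776 higher transcripts, 357 reached the mean of 5 RPKM through dF4 alone, and 419 had a dF1 mean of at least 5. Every lower transcript passed through its dF1 values, since dF4 lay below both of them. How many of these had a dF4 value below 5 RPKM was not taken. With the filter set on the dF1 libraries alone, 419 transcripts were higher and 908 lower, so the equal counts hold for the filter that includes dF4. Just inside the filter, at a mean of 5 RPKM, lay Fbxo32 (6.4 and 5.5 in dF1, 3.1 in dF4), 2610008E11Rik (5.8 and 4.8, 4.4) and Clec4a1 (0.4 and 0.7, 13.9). Just outside it, at 4.967, lay Pou2f1 (5.8 and 4.7 in dF1, 4.4 in dF4), Timeless (3.8 and 3.6, 7.5) and Dusp22 (7.4 and 5.7, 1.8).

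**Figure D1:**
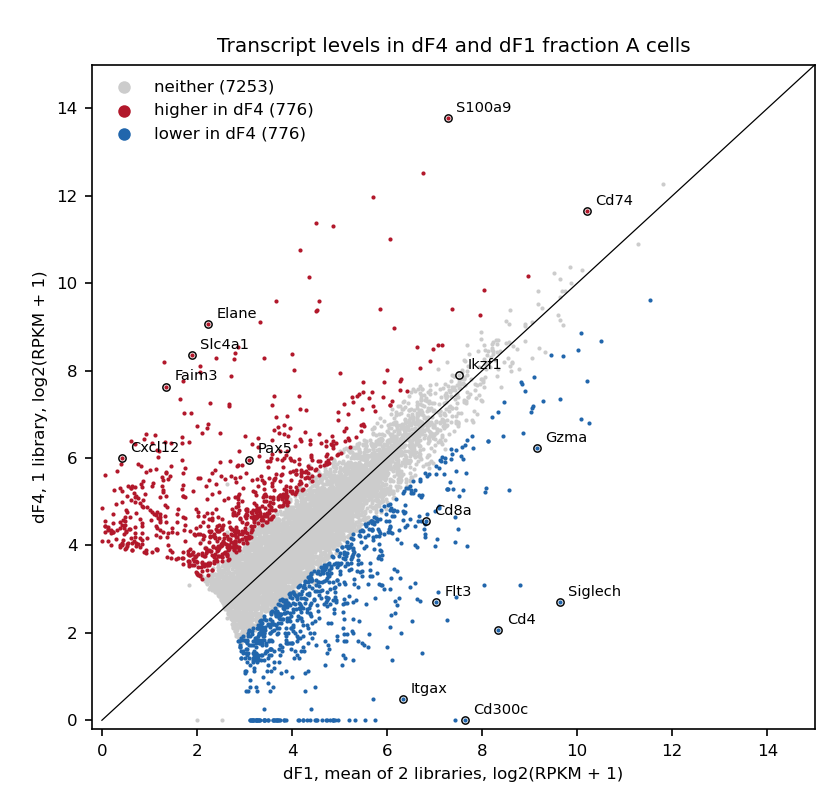
Level of each of the 8805 compared transcripts on log2(RPKM + 1), with the mean of the 2 dF1 libraries on the x axis and the dF4 library on the y axis; the line marks equal levels. Red points (776) lie at least 1 above both dF1 libraries, blue points (776) at least 1 below both, and the row of blue points at 0 holds the 60 transcripts listed at 0 in dF4.

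Of the 5 members of the Ikaros family 3 were compared, and 1 of these counted as different. Ikzf1 was at 182.2 and 182.1 RPKM in dF1 and 237.7 in dF4 (interval 221 to 256), with 175.8 and 141.1 in wt. RPKM is summed over all exons, so the value is no check of either finger mutation. Ikzf3, which encodes Aiolos, was at 51.3 and 45.3 RPKM in dF1 and 164.7 in dF4 (interval 149 to 182), a 3.41-fold difference from the dF1 mean, with 55.9 and 29.1 in wt. Aiolos is the family member of later B and T lineage cells, and its dF4 value stood above all 4 other libraries. Ikzf2, which encodes Helios, was at 6.6 and 4.2 RPKM in dF1 and 13.9 in dF4, 0.97 above the higher dF1 library on the log2 scale and so not counted. Ikzf5 lay between 2.8 and 4.6 RPKM in all 5 libraries, and Ikzf4, which encodes Eos, at 0.1 or below.

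Of the NuRD complex list 13 of 13 members were compared, 0 counted as higher and 1 as lower, and the median difference was -0.01. The lower member was Gatad2b, a scaffold subunit, at 31 and 31.1 RPKM in dF1 and 13.1 in dF4. The remodelling ATPase Chd4 was at 92.9 and 109.1 RPKM in dF1 and 114.1 in dF4. The deacetylase Hdac1 was at 8.5 and 8.4 RPKM in dF1 and 7.5 in dF4. The sign of the list's median was not stable: it was 0.01 without dF1 replicate 2.

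The transcripts that lay farthest above the dF1 libraries were mostly products of granulocytes, with Slc4a1 of red cells and Faim3 and Ms4a1 of B cells beside them. Faim3, an IgM receptor of B cells, was at 1.4 and 1.7 RPKM in dF1, 2.8 and 2.2 in wt and 198 in dF4 (interval 170 to 229, about 177 reads), 128-fold above the dF1 mean. Elane, the neutrophil elastase, was at 1.4 and 8.3 RPKM in dF1, 4.7 and 9.4 in wt and 537.8 in dF4. S100a9, a component of the neutrophil protein calprotectin, was at 76.5 and 309.6 RPKM in dF1, 148.5 and 350.6 in wt and 14099.8 in dF4, where it was the most abundant transcript. These 3 were picked for their distance from dF1, and their dF4 value was also above both wt libraries. In Elane and S100a9 replicate 2 was above replicate 1 in dF1. The others of the 15 farthest were the neutrophil products Fcnb, Lcn2, Lrg1, Camp, Ltf, Ngp and Orm1, the basophil protease Prss34, the red cell anion exchanger Slc4a1, Ms4a1 (the B cell protein CD20), the chemokine Cxcl12 and the kinase Mapk13. Of the 15, Faim3, Elane, Fcnb, Lrg1, Mapk13, Cxcl12, Prss34, Slc4a1, Orm1 and Ms4a1 had a dF1 mean below 5 RPKM. They passed the filter through dF4 alone, so their place in the comparison rests on the dF4 value itself. Mapk13 was at 0 and 0.1 RPKM in dF1 and 47.6 in dF4. Cxcl12, which stromal cells of the marrow make and which holds early B cells there, was at 0.5 and 0.2 RPKM in dF1, 0.7 and 0.7 in wt and 62.6 in dF4.

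Of the 15 transcripts that lay farthest below, 6 (Cd300c, Cox6a2, Siglech, Ccr9, Runx2 and Klk1) are in the list of plasmacytoid dendritic cells (pDCs), the type I interferon producing dendritic cells. Siglech, a pDC surface lectin, was at 785.2 and 807.3 RPKM in dF1, 936.2 and 838.4 in wt and 5.5 in dF4 (interval 2.41 to 11, about 8 reads), 145-fold below the dF1 mean. Cd300c, a receptor of myeloid cells and pDCs, was at 189.6 and 207.4 RPKM in dF1 and listed at 0 in dF4, where 3 reads would have given 7.24 RPKM. Havcr1, a phosphatidylserine receptor, was at 53.9 and 51.3 RPKM in dF1 and listed at 0 in dF4. For all 3, the dF1 libraries stood close to each other and to wt, and dF4 stood far below. Itgax, the integrin CD11c of dendritic cells, was at 70.8 and 89 RPKM in dF1 and 0.4 in dF4, about 1 read. The cadherin Cdh1 was at 56.1 and 46.4 RPKM in dF1 and 0.4 in dF4, again about 1 read. Runx2, a transcription factor of bone that pDCs also use, was at 145.7 and 158.5 RPKM in dF1 and 3.9 in dF4 (interval 2.17 to 6.41). The rest of the 15 were Cox6a2, Cd4, Cd209d, Ccr9 and, all listed at 0 in dF4, Adam11, Klk1, Prss30, Paqr5 and Pnck.

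**Figure D2:**
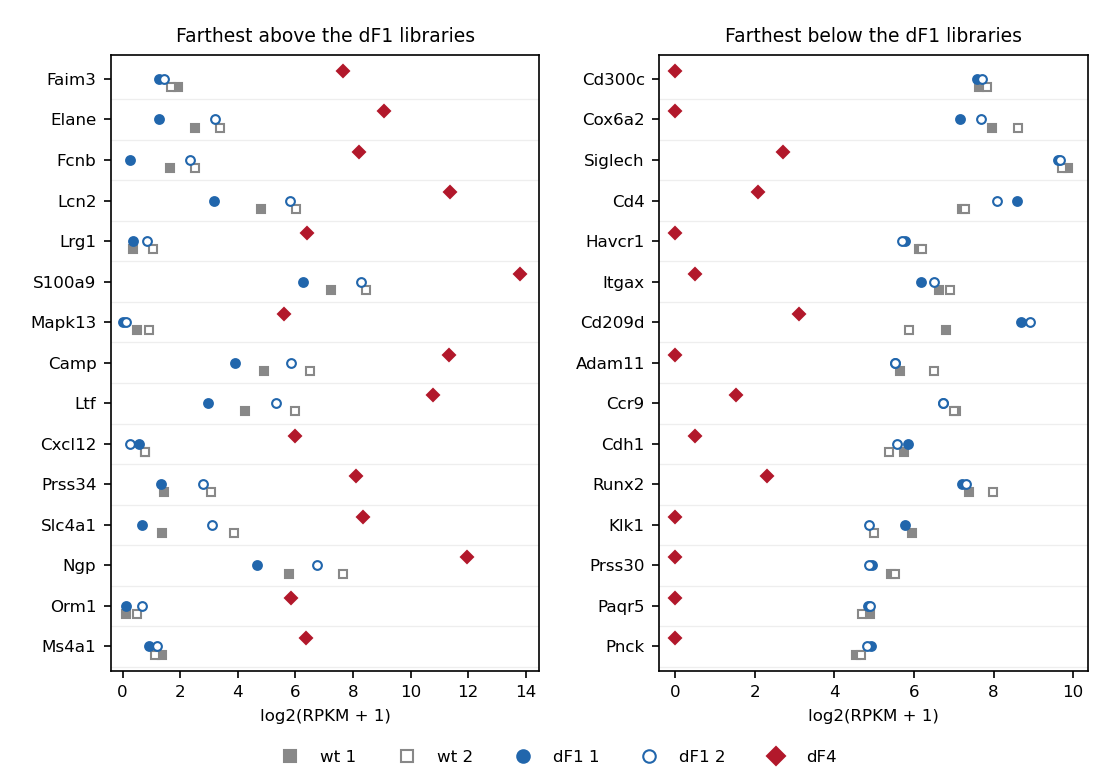
Levels on log2(RPKM + 1) in each of the 5 libraries for the 15 transcripts farthest above (left) and the 15 farthest below (right) the nearer dF1 library, with wt as grey squares, dF1 as blue circles (replicate 1 filled, replicate 2 open) and dF4 as red diamonds. The dF4 diamonds lie away from both dF1 and both wt libraries in all 30, and for the neutrophil transcripts on the left replicate 2 lies above replicate 1 in both genotypes.

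Gene lists were described by the number of members that counted in each direction and by the median of dF4 minus the dF1 mean over all members in the table. A member below the filter cannot count, so the number compared is given with each list. Also given is how many of the higher members passed the filter through dF4 alone. For these the filter fixed that dF4 lay above the dF1 mean, but not by how much. Of 515 compared transcripts that passed in this way, 357 counted as higher. Lower members passed through their dF1 values, where they are high, and no such number was taken for them. The counts are to be read beside the 8.81% that counted in each direction and the median of 0.004 over all compared transcripts. The lists held 542 gene entries, of which 540 were in the table (Ly6g and Ahsp were not matched), and several lists share members.

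**Figure D3:**
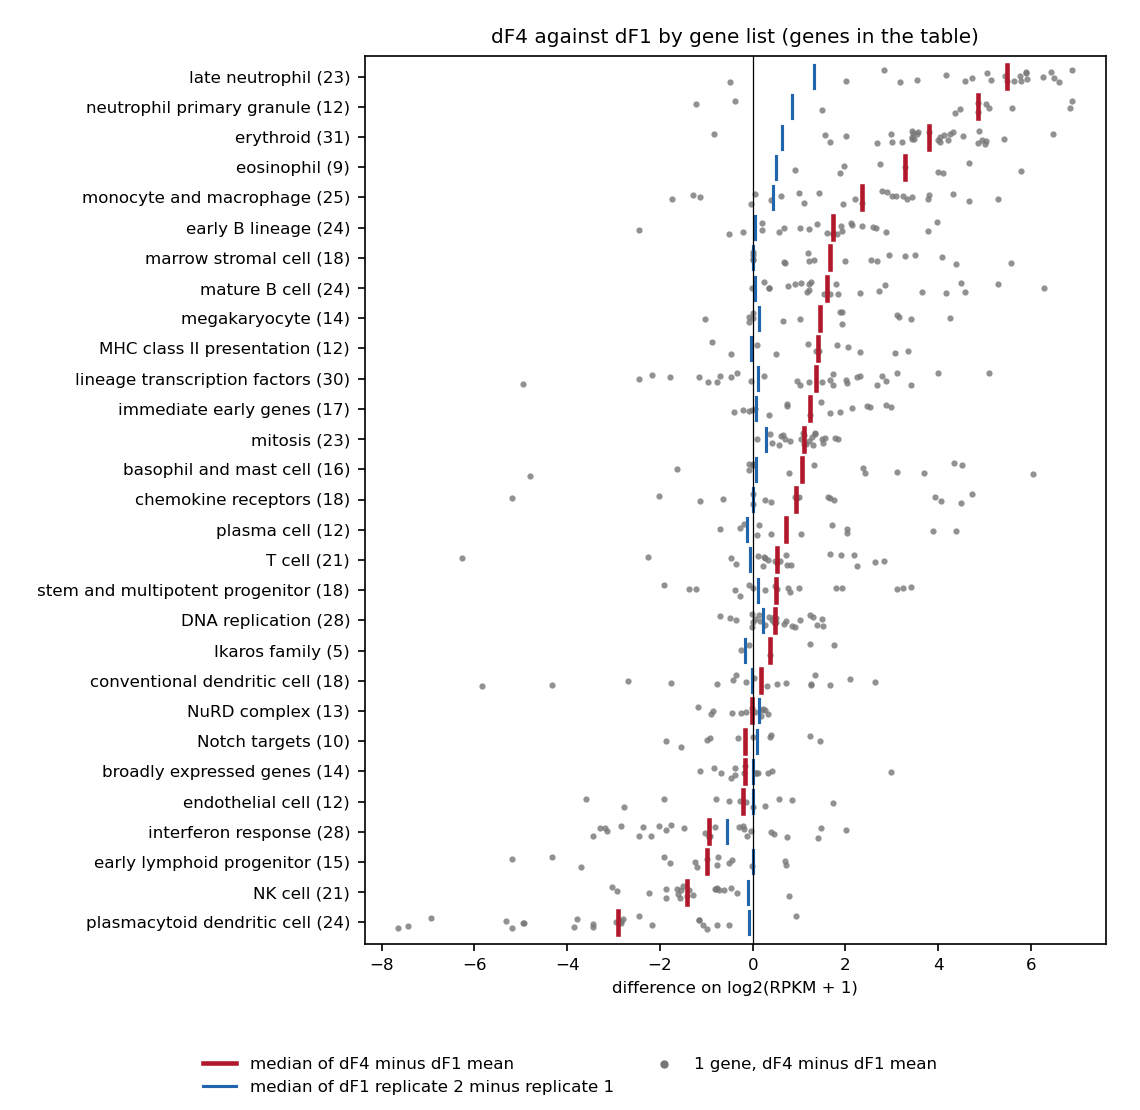
Difference of dF4 from the dF1 mean on log2(RPKM + 1) for each gene (grey points) of 29 gene lists, with the list median in red and, in blue, the median of dF1 replicate 2 minus dF1 replicate 1. The neutrophil lists and the erythroid list lie farthest to the right (medians 5.49, 4.86 and 3.80) and the pDC list farthest to the left (-2.90); the blue mark is also to the right for the neutrophil lists.

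Early B lineage genes were higher in dF4. Of the 24 members of the list 23 were compared; 16 counted as higher and 0 as lower, 3 of the 16 passing the filter through dF4 alone, and the median was 1.74. Pax5, the factor that commits cells to the B lineage, was at 6 and 9.4 RPKM in dF1, 7.8 and 5.4 in wt and 61.5 in dF4, 7.99-fold above the dF1 mean. Pou2af1, a B cell co-activator of octamer factors, was at 9.7 and 13.2 RPKM in dF1, 19.3 and 8.9 in wt and 169 in dF4. In both genes dF4 lay above all 4 other libraries, and the dF1 and wt values overlapped. Ebf1, which acts with Pax5, was at 7.2 and 7.4 RPKM in dF1 and 26.6 in dF4. Cd79a, a signalling chain of the B cell receptor, was at 31.4 and 34.8 RPKM in dF1 and 149 in dF4. Among the surrogate light chain genes, which pro-B and pre-B cells use before a light chain is made, Igll1 and Vpreb1 counted as higher and Vpreb2 was below the filter. Igll1 was at 35.3 and 39.6 RPKM in dF1 and 167.2 in dF4, and Vpreb1 at 14.3 and 8.6 in dF1 and 30.5 in dF4. Vpreb2 was at 6.2 and 3.2 RPKM in dF1 and listed at 0 in dF4, with an interval reaching 14.3 RPKM, so no difference was detectable at this depth. Foxo1, Btk, Cd93 and Sykb were not counted; Foxo1 was at 19 and 19.6 RPKM in dF1 and 29.3 in dF4.

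Genes of mature B cells were also higher. Of 24 members 23 were compared; 17 counted as higher and 0 as lower, 8 of the 17 through dF4 alone, with a median of 1.61. Beside Faim3, Ms4a1 was at 0.9 and 1.3 RPKM in dF1 and 80.9 in dF4. Fcer2a, the low-affinity IgE receptor of follicular B cells, was at 0.2 and 0.5 RPKM in dF1 and 31.1 in dF4. Cd22, an inhibitory B cell lectin, was at 8.8 and 9.1 RPKM in dF1, 15.9 and 23.4 in wt and 65 in dF4. Faim3, Ms4a1 and Fcer2a are among the 8 that passed the filter through dF4 alone. The filter thus fixed that their dF4 value lay above the dF1 mean, but not by how much. Cd22, with a dF1 mean of 8.95 RPKM, was not among the 8. In all 4 genes dF4 was also above both wt libraries. Cr2, the complement receptor of mature B cells, was at 0.1 and 0.1 RPKM in dF1 and 0.3 in dF4, and Fcrla was at 135 and 138.1 in dF1 and 135.1 in dF4. In the plasma cell list 6 of 12 members (10 compared) counted as higher, 1 of them through dF4 alone, and 0 as lower. Its median was 0.71, or 1.37 over the members compared. Igj, the joining chain of secreted antibody, was at 21.2 and 10.5 RPKM in dF1, 132.1 and 7.3 in wt and 331.2 in dF4. Prdm1, the factor of plasma cell fate, was at 5.5 and 3.8 RPKM in dF1 and 3.6 in dF4, so the defining regulator of that list was not higher.

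MHC class II presentation genes, used by B cells, dendritic cells and macrophages, were higher for 8 of 12 members (12 compared), 1 of them through dF4 alone, and lower for 0 (median 1.40). Cd74, the invariant chain, was at 1425.7 and 983.9 RPKM in dF1 and 3207.6 in dF4. H2-Ob, a chain of the protein that tempers class II peptide loading in B cells, was at 13.9 and 13.9 RPKM in dF1 and 123.5 in dF4. Ciita, the master activator of the class II genes, was at 10.4 and 10 RPKM in dF1 and 54.6 in dF4. Against that, H2-DMb1 was at 26 and 23.7 RPKM in dF1 and 13.1 in dF4, while its near copy H2-DMb2 was at 3.2 and 4.9 in dF1 and 49.4 in dF4. Both values are uncertain, since how the authors' counting split reads between such copies is not stated in the labels.

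The pDC list was lower in dF4 for 17 of 24 members (22 compared) and higher for 0, with a median of -2.90. Beside Siglech, Cd300c and Runx2, Bst2, an interferon-induced surface protein of pDCs, was at 1118.1 and 1303.9 RPKM in dF1 and 110.3 in dF4. Irf8, a transcription factor of dendritic cell and monocyte development, was at 1019.5 and 1359.5 RPKM in dF1 and 215.8 in dF4 (interval 194 to 239). Tcf4, the factor that sets pDC identity, was at 144.2 and 125.7 RPKM in dF1 and 29.1 in dF4. Among the transcription factors of the list, Irf8, Tcf4 and Spib were lower than the dF1 mean by 5.51-fold, 4.64-fold and 2.24-fold, and Runx2 by 39-fold. Tlr7, a sensor of single-stranded RNA, was at 68.2 and 49.9 RPKM in dF1 and 7.6 in dF4. Tlr9, a sensor of unmethylated DNA, was at 93.1 and 97.2 RPKM in dF1 and 47.8 in dF4, 0.98 below the dF1 mean and not counted. Cadm1 was the member on the other side, at 1.1 and 1.2 RPKM in dF1 and 3.1 in dF4.

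These values bear on the label of the cells. In the dF1 libraries, labelled proB, the pDC list held 1.99% and 2.05% of the summed RPKM and the early B lineage list 0.245% and 0.239%. In dF4 the pDC list held 0.318% and the early B lineage list 0.617%. In the wt libraries the shares were 2.14% and 2.60% for the pDC list and 0.311% and 0.259% for the early B list. The order of the pDC and early B lists was thus reversed in dF4 alone among the 5 libraries. Neither was the largest cell type list in dF4. There the late neutrophil list held 10.3%, the erythroid list 0.915% and the primary granule list 0.872%. The other cell type lists held less in dF4 than the early B list. In dF1 the NK cell list, among others, also held more than the early B list, at 1.36% and 1.20%. Pax5 and Cd79a were detected in all 5 libraries.

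Conventional dendritic cell genes went both ways, with 3 of 18 members (13 compared) higher, 4 lower and a median of 0.17, which was -0.36 when only members with a mean of at least 5 RPKM were kept. Flt3, the receptor for a growth factor of dendritic cells and early lymphoid progenitors, was at 118.8 and 141.2 RPKM in dF1 and 5.5 in dF4 (interval 2.82 to 9.54). Clec9a, a dead-cell receptor of conventional dendritic cells, was at 11.3 and 10.5 RPKM in dF1, 36.5 and 37.4 in wt and 2.5 in dF4, about 5 reads. Naaa, a lysosomal amidase, was at 6.1 and 6 RPKM in dF1 and 42.6 in dF4. Zbtb46, the factor that marks these cells, was at 1.7 RPKM or below in all 5 libraries.

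Early lymphoid progenitor genes were lower for 6 of 15 members (14 compared) and higher for 0, with a median of -0.98. They share Ccr9 and Ly6d with the pDC list and Flt3 with the dendritic list. Dntt, the terminal transferase that adds bases at antigen receptor joints, was at 220.9 and 187.3 RPKM in dF1, 238.9 and 152.5 in wt and 14.8 in dF4, 13.8-fold below the dF1 mean. Ccr9, a homing receptor of thymus seeding cells and pDCs, was at 104.1 and 105.6 RPKM in dF1 and 1.9 in dF4, about 5 reads. The recombinase genes did not share this: Rag1 was at 23.6 and 22.4 RPKM in dF1 and 16.6 in dF4, and Rag2 at 6 and 4.4 in dF1 and 8.9 in dF4. Il7r, the interleukin 7 receptor on which mouse B cell precursors depend, was at 73 and 73.5 RPKM in dF1 and 51.3 in dF4 (interval 41.9 to 62.7), outside the dF1 range but not counted. Among the 10 Notch target genes, 3 of them compared, 1 counted as lower and 0 as higher (median -0.16, or -0.98 over those compared). It was Nrarp, a feedback inhibitor, at 8.9 and 10.3 RPKM in dF1 and 2.6 in dF4, about 4 reads.

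T cell genes split in dF4. The 2 co-receptor genes Cd4 and Cd8a were lower and 5 of the 21 members (20 compared) were higher, with a median of 0.52. Of the 5, Cd5 and Cd6 passed the filter through dF4 alone. Cd4 was at 385.5 and 272.4 RPKM in dF1, 146.3 and 154.1 in wt and 3.2 in dF4 (interval 1.19 to 7.05), 103-fold below the dF1 mean. Cd8a was at 131 and 94.6 RPKM in dF1, 25.6 and 27.8 in wt and 22.6 in dF4 (interval 16.2 to 30.3). Both co-receptors are also carried by dendritic cells, and both were higher in dF1 than in wt and dF4. Of the CD3 chains of the T cell receptor, 2 of 4 were higher. Cd3d was at 31.3 and 29.2 RPKM in dF1, 25 and 15.2 in wt and 115.5 in dF4, and Cd3e at 20.8 and 19.5 in dF1 and 66.1 in dF4. Cd3g was at 32.8 and 29.4 RPKM in dF1 and 51.6 in dF4, and Cd247 at 46.8 and 45.1 in dF1 and 50.2 in dF4, neither of them counted. Lat, the adaptor below the receptor, was at 17.7 and 17 RPKM in dF1 and 82.7 in dF4. Cd5, an inhibitory receptor of T cells and some B cells, was at 3.7 and 3.6 RPKM in dF1 and 32.3 in dF4, and the related receptor Cd6 was at 2.1 and 2.5 in dF1 and 19.5 in dF4. Cd8b1, the partner chain of Cd8a, was at 29.9 and 15.6 RPKM in dF1 and 15.3 in dF4, so it did not show the difference of Cd8a.

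NK cell genes were lower for 12 of 21 members (20 compared) and higher for 0, with a median of -1.41. Gzma, a granzyme of the cytotoxic granules, was at 634.1 and 504.2 RPKM in dF1, 356.2 and 195.5 in wt and 73.6 in dF4, 7.73-fold below the dF1 mean. Ncr1, an activating receptor that defines NK cells, was at 184.6 and 202 RPKM in dF1, 168.7 and 69.8 in wt and 61.6 in dF4. Klrb1c, the NK1.1 antigen, was at 106.2 and 102.8 RPKM in dF1, 104 and 34.6 in wt and 33.7 in dF4. For Ncr1 and Klrb1c the dF4 value stood close to wt replicate 2, so the wt pair spanned most of the gap between dF4 and dF1. The master regulators differed less: Eomes was at 55 and 51.6 RPKM in dF1 and 38 in dF4, and Tbx21 at 36.8 and 33.8 in dF1 and 20.3 in dF4, neither of them counted. Ifng was the member above both dF1 libraries, at 7.3 and 6.4 RPKM in dF1 and 12.5 in dF4, about 9 reads. The list held 1.36% and 1.20% of the summed RPKM in dF1, 1.19% and 0.672% in wt and 0.444% in dF4.

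**Figure D4:**
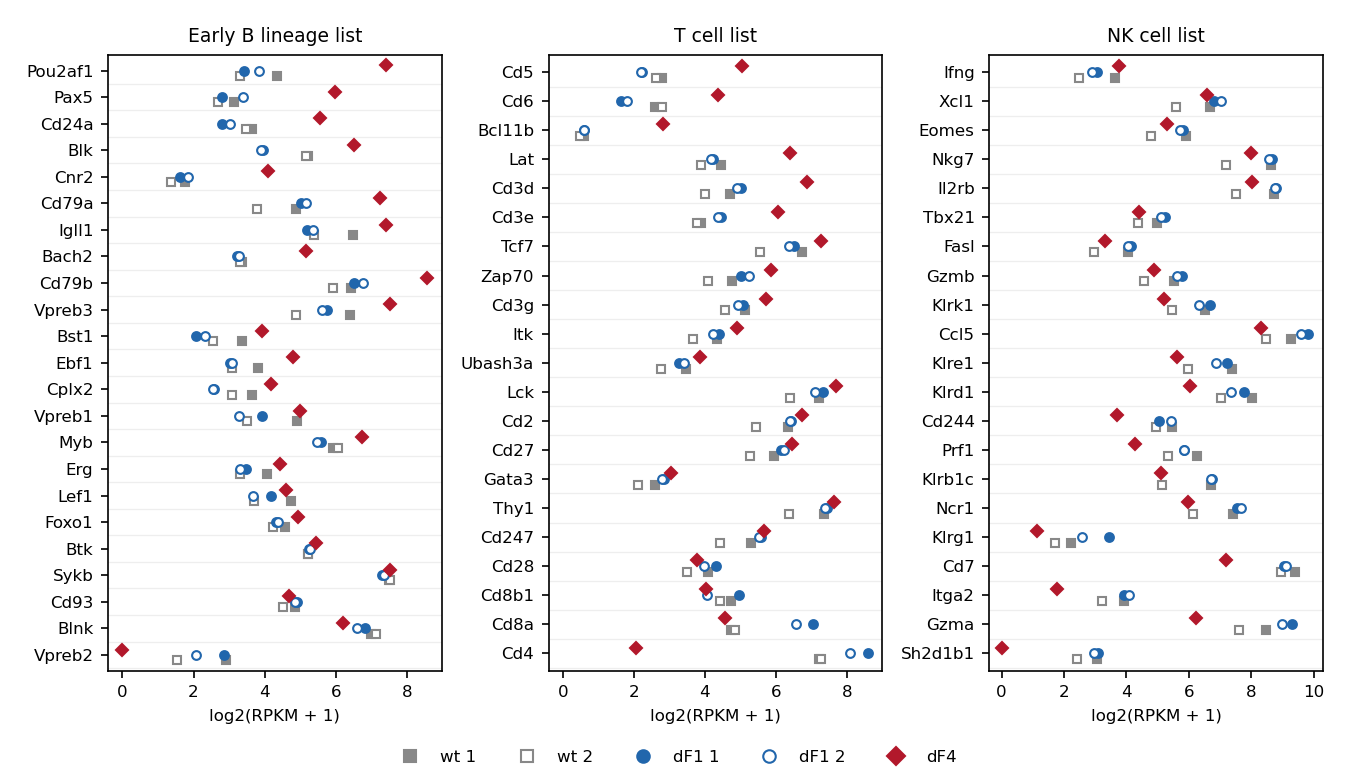
Levels on log2(RPKM + 1) in the 5 libraries for the members of the early B lineage, T cell and NK cell lists, ordered by the difference between dF4 and dF1, with symbols as wt (grey squares), dF1 (blue circles) and dF4 (red diamonds). In the early B panel, which leaves out 1 member, most diamonds lie above both circles, in the NK panel 12 of 21 lie at least 1 below among those compared, and in the T cell panel Cd4 and Cd8a stand at the bottom while Cd5, Cd6, Lat, Cd3d and Cd3e are higher.

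Neutrophil genes gave the highest list medians. In the late neutrophil list 22 of 23 members (23 compared) counted as higher and 0 as lower, 9 of the 22 through dF4 alone, with a median of 5.49. S100a8, the partner of S100a9, was at 58.1 and 196.5 RPKM in dF1 and 5890.6 in dF4. Ltf, the iron-binding lactoferrin of secondary granules, was at 6.9 and 39.6 RPKM in dF1 and 1743.8 in dF4. Ngp, another granule protein, was at 24.4 and 105.7 RPKM in dF1 and 4017.3 in dF4. Cybb, the phagocyte oxidase subunit that B cells and macrophages also make, was the exception, at 235 and 231.6 RPKM in dF1 and 166.1 in dF4. This list also differed within genotypes: it was higher in dF1 replicate 2 than in replicate 1 for 20 of 23 members (median 1.32). It held 0.194% and 0.403% of the summed RPKM in the dF1 libraries, 0.245% and 0.497% in wt and 10.3% in dF4. Against dF1 replicate 2 alone the median was 4.83, and whether neutrophils in the sorted sample made up the difference was not tested.

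Primary granule genes, made by neutrophil precursors, were higher for 10 of 12 members (12 compared), 6 of the 10 through dF4 alone, and lower for 1 (median 4.86). Mpo, the myeloperoxidase, was at 15 and 34.5 RPKM in dF1, 12.8 and 22.5 in wt and 772.9 in dF4. Cebpe, the factor needed for the later granules, was at 0.3 and 1.2 RPKM in dF1 and 56.9 in dF4. The lower member was Plac8, which lymphoid and dendritic cells make as well, at 1084.8 and 1082.8 RPKM in dF1 and 465.1 in dF4.

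In the monocyte and macrophage list 13 of 25 members (19 compared) counted as higher, 12 of them through dF4 alone, and 3 as lower, with a median of 2.36. Csf1r, the receptor for the macrophage growth factor, was at 2.4 and 7.3 RPKM in dF1 and 41.7 in dF4, and the complement gene C1qb at 0.9 and 2.4 in dF1 and 49.6 in dF4. The lower members, Cd68, Ly86 and Ccr2, are also made by dendritic cells, and Cd68 was at 181 and 169.2 RPKM in dF1 and 51.4 in dF4. The eosinophil list had 4 of 9 members (4 compared) higher, 3 of the 4 through dF4 alone, and 0 lower (median 3.28), led by Prg2, the major basic protein, at 3.9 and 19.5 RPKM in dF1 and 555.8 in dF4. In the basophil and mast cell list 4 of 16 members (6 compared) counted as higher, 3 of the 4 through dF4 alone, and 2 as lower. Its median was 1.06, or 4.02 over the members compared. Prss34, a basophil protease, was at 1.5 and 5.9 RPKM in dF1 and 274.2 in dF4, and Mcpt8, another one, at 4.4 and 6.6 in dF1 and 146 in dF4. Cma1, a chymase of connective tissue mast cells, was at 32.1 and 22.2 RPKM in dF1, 4.2 and 1.8 in wt and listed at 0 in dF4. Tpsb2 and Tpsab1, mast cell tryptases, were listed at 0 in dF1, wt and dF4 alike.

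Erythroid genes were higher for 28 of 31 members (29 compared) and lower for 0, with a median of 3.80; 20 of the 28 passed the filter through dF4 alone. Slc4a1 was at 0.6 and 7.6 RPKM in dF1, 1.6 and 13.5 in wt and 327.2 in dF4. Aqp1, the water channel of red cells, was at 0.2 and 2.9 RPKM in dF1 and 91.9 in dF4. Gata1, the transcription factor of red cells and platelets, was at 0.1 and 0.8 RPKM in dF1 and 21.3 in dF4. Surface, heme and regulatory genes thus lay together above dF1. Hbb-b1, an adult beta globin with a close copy, was at 12.9 and 35.6 RPKM in dF1 and 657.9 in dF4. Alas2, the first enzyme of red cell heme synthesis, was at 1.6 and 7.9 RPKM in dF1 and 153.1 in dF4. Tfrc, the transferrin receptor that dividing cells of many kinds carry, was the exception, at 65.3 and 66.9 RPKM in dF1, 111.5 and 152.6 in wt and 36.9 in dF4. As with the neutrophil list, dF1 replicate 2 was above replicate 1 for 30 of 31 members (median 0.63), and the part of red cell precursors in the sample was not tested.

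Lists of rarer marrow cells had few members to compare. In the marrow stromal list 4 of 18 members (4 compared) counted as higher, 3 of the 4 through dF4 alone, and 0 as lower. Its median was 1.66, or 4.23 over the members compared. Igfbp4, an inhibitor of insulin-like growth factors, was at 8.6 and 15.8 RPKM in dF1 and 122.4 in dF4. Igfbp5 was at 0.1 and 0 RPKM in dF1 and 20.9 in dF4, and the matrix protein Sparc at 0.5 and 0.3 in dF1 and 22.5 in dF4. Lepr, a receptor that marks the stromal cells making Cxcl12, was listed at 0 in both dF1 libraries and stood at 3 RPKM in dF4, about 10 reads, while Pdgfra, Dcn and Lum were at 0 in dF1 and dF4. The megakaryocyte list had 1 of 14 members compared, and it counted as higher through dF4 alone (list median 1.45, or 4.25 for that member). It was the platelet chemokine Pf4, at 0 and 0.2 RPKM in dF1 and 19.9 in dF4, about 7 reads. The endothelial list had 3 of 12 members (5 compared) lower and 0 higher (median -0.21, or -1.91 over those compared), among them the cadherin Cdh5, at 63.9 and 82.6 RPKM in dF1 and 9.7 in dF4. Emcn, another endothelial surface protein, was listed at 0 in both dF1 libraries and stood at 2.3 RPKM in dF4, about 2 reads. In the stem and multipotent progenitor list 2 of 18 members (5 compared) were higher, both through dF4 alone, and 0 lower (median 0.51): Kit, the stem cell factor receptor, at 3.7 and 4.7 RPKM in dF1 and 17.1 in dF4, and Gfi1b, a repressor of red cell and platelet precursors.

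Transcription factors that set blood cell lineages differed in both directions. Of 30 members of that list 24 were compared; 11 counted as higher, 4 of them through dF4 alone, and 5 as lower, with a median of 1.36. Cebpe, Gata1, Pax5 and Ebf1, given above, were among the higher, and the lower members were Runx2, Irf8, Tcf4, Bcl11a and Spib. Bcl11a, a factor of lymphoid progenitors and pDCs, was at 48.8 and 64.5 RPKM in dF1 and 15.5 in dF4. Spib, a relative of PU.1 in pDCs and B cells, was at 334.3 and 364.6 RPKM in dF1 and 155.7 in dF4. Sfpi1, which encodes PU.1, was at 18.5 and 29.6 RPKM in dF1 and 80.2 in dF4. The related factors Spib and Sfpi1 thus differed in opposite directions. Irf4, a factor of activated B cells and plasma cells, was at 9.4 and 11.4 RPKM in dF1 and 45.8 in dF4, opposite to its relative Irf8. Gata3, Runx1, Runx3 and Tcf12 were not counted.

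Interferon response genes were lower for 11 of 28 members (26 compared) and higher for 3, with a median of -0.94. Irf7, the factor that amplifies type I interferon, was at 340.4 and 205.6 RPKM in dF1, 133.3 and 170.4 in wt and 36.1 in dF4. Mx1, an antiviral GTPase, was at 49.3 and 29.2 RPKM in dF1 and 3 in dF4, about 5 reads. The 3 higher members were Oas2, which passed the filter through dF4 alone, Oas3 and Rsad2; Oas3, a sensor of double-stranded RNA, was at 11 and 7.5 RPKM in dF1, 3 and 4 in wt and 25.8 in dF4. The dF1 libraries themselves differed, with replicate 2 below replicate 1 for 26 of 28 members (median -0.54), and against replicate 2 alone the dF4 median was -0.90. The list shares Bst2 and Irf7 with the pDC list.

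Mitosis genes were higher for 12 of 23 members (22 compared) and lower for 0 (median 1.11). At any distance, dF4 lay above both dF1 libraries for 23 of 23, including Ccnb1, which was below the filter at about 2 reads. Lying outside the dF1 range was common, since dF4 lay within it for 915 of the 8805 compared transcripts. The share of these above both libraries was not taken. Mki67, the proliferation antigen, was at 48 and 54.3 RPKM in dF1, 65.2 and 51.1 in wt and 146 in dF4. Ube2c, which helps degrade mitotic cyclins, was at 13.6 and 20.4 RPKM in dF1 and 62.3 in dF4. DNA replication genes differed less, with 5 of 28 members (25 compared) higher, 1 of them through dF4 alone, 0 lower and a median of 0.47. Cdt1, which loads the replicative helicase, was at 12.1 and 18 RPKM in dF1 and 44 in dF4, whereas the helicase subunit Mcm6 was at 90.6 and 100.3 in dF1 and 95.9 in dF4. In both lists dF1 replicate 2 was also above replicate 1, by medians of 0.29 and 0.22.

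Immediate early genes, switched on fast by many stimuli, were higher for 7 of 17 members (13 compared), 3 of them through dF4 alone, and lower for 0 (median 1.24, or 0.92 against dF1 replicate 1 alone). Fos was at 12.9 and 2.7 RPKM in dF1, 59.5 and 19.9 in wt and 55.3 in dF4, so dF4 lay within the wt range. Junb was at 8.7 and 11.8 RPKM in dF1, 14.7 and 8.2 in wt and 60.1 in dF4, above all the others. Among 18 chemokine receptors, 10 of them compared, 5 counted as higher, 4 of these through dF4 alone, and 3 as lower (median 0.93). The B cell receptors Cxcr5 and Ccr6 were higher, Ccr6 at 0.9 and 0.7 RPKM in dF1 and 29.1 in dF4, as was the neutrophil receptor Cxcr2, at 0.5 and 1.7 in dF1 and 52.3 in dF4. Ccr2, a receptor of monocytes and some dendritic cells, was lower, at 148.3 and 134.9 RPKM in dF1 and 63.8 in dF4. Cxcr4, the receptor for Cxcl12, was at 166.2 and 116 RPKM in dF1 and 168.1 in dF4 and was not counted.

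Genes that most cells express served as a check of scale. Of 14 such genes, 12 were compared and 10 of these not counted in either direction, with a list median of -0.18. Actb was at 786.1 and 796.3 RPKM in dF1 and 828.5 in dF4, and Eef2 at 479.4 and 580 in dF1 and 550.6 in dF4. The gene counted as lower was Hprt, of purine salvage, at 50.8 and 49.5 RPKM in dF1 and 22.2 in dF4 (interval 13.2 to 35.1). A further member, shared with the erythroid list, counted as higher. Ppia and Pgk1, which have many processed copies in the genome, were at 0.4 to 4.6 RPKM in dF1 and dF4 and are uncertain. Some of the most abundant dF1 transcripts, picked after their values were seen, were also lower in dF4. Psap, a lysosomal protein precursor, was at 2827.5 and 3143.6 RPKM in dF1 and 788.5 in dF4. Tyrobp, the signalling adaptor of NK and myeloid receptors, was at 1462.6 and 1449.4 RPKM in dF1 and 407.2 in dF4, and Mpeg1, a pore-forming protein of phagocytes, at 1147.7 and 1008 in dF1 and 118 in dF4.

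The wt libraries served as a reference for where the finger mutants part. For 6 transcripts dF4 stood within 0.5 log2 units of the wt mean, with the wt libraries within 0.5 of each other, while dF1 stood apart from dF4. They were picked by this rule from the 776 higher and 776 lower transcripts, leaving out those not ranked. Beside Cd8a, Slc7a6os, a protein linked to RNA polymerase, was at 26.8 and 25.7 RPKM in wt, against 69.2 and 68.4 in dF1, and 26.6 in dF4 (interval 16.8 to 39.1). Sdc1, the syndecan that marks plasma cells, was at 13.8 and 14.3 RPKM in wt, against 5.5 and 5.2 in dF1, and 12 in dF4 (interval 7.54 to 18.2). Ltbr, the lymphotoxin beta receptor, was at 8.7 and 10.4 RPKM in wt, against 3.4 and 5.4 in dF1, and 12 in dF4. That the dF1 libraries lay away from wt and the dF4 library did not follows from the rule and is not a result. The other 2 were Vkorc1, of vitamin K recycling, at 23.1 and 25.7 RPKM in dF1 and 9.8 in dF4 on about 4 reads, and Mllt4, an adhesion protein, at 6.1 and 6.6 in dF1 and 2.5 in dF4.

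Other transcripts had dF1 and dF4 on opposite sides of wt; they were picked after their values were seen. Cd209d, a lectin of the DC-SIGN family with close copies, was at 111 and 57.8 RPKM in wt, against 414.1 and 479.4 in dF1, and 7.6 in dF4, about 4 reads. Dkkl1 was at 5 and 3.1 RPKM in wt, against 21.4 and 31.1 in dF1, and listed at 0 in dF4. Dusp9, a phosphatase of MAP kinases, was at 7.8 and 9.8 RPKM in wt, against 18.5 and 18.2 in dF1, and 0.6 in dF4, about 1 read. Cd4 belongs here as well, and in each of these dF1 was above wt and dF4 below. In the other direction, Blk, a tyrosine kinase below the B cell receptor, was at 35.8 and 34.5 RPKM in wt, against 14.4 and 13.8 in dF1, and 89.8 in dF4. Slpi, an inhibitor of neutrophil proteases, was at 44.3 and 42.3 RPKM in wt, against 12.1 and 17.6 in dF1, and 102.8 in dF4. Tmem176b, a membrane protein of dendritic and myeloid cells, was at 27.8 and 26.2 RPKM in wt, against 8 and 15 in dF1, and 146.9 in dF4. Each of these had dF1 below wt and dF4 above it. That the 3 genotypes do not overlap, in either direction, follows from the rule and is not a result.

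**Figure D5:**
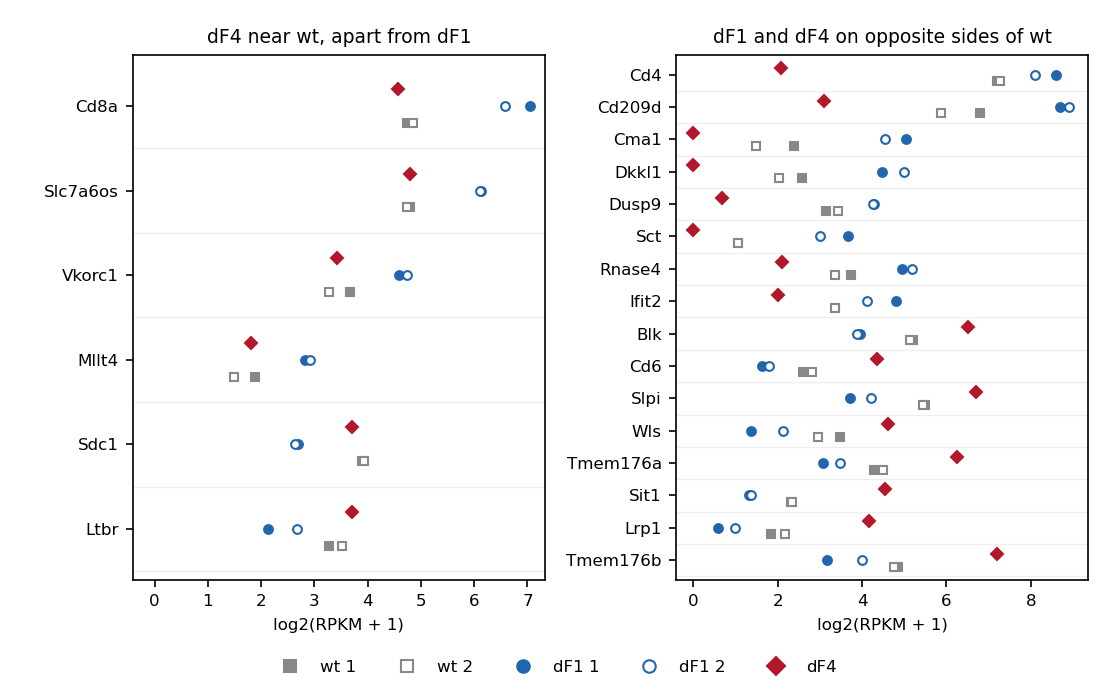
Levels on log2(RPKM + 1) of transcripts with dF4 near wt and apart from dF1 (left, 6 transcripts) and of transcripts with dF1 and dF4 on opposite sides of wt (right, 16 transcripts chosen after their values were seen), with wt as grey squares, dF1 as blue circles and dF4 as red diamonds. On the right the upper 8 have the circles to the right of the squares and the diamond to the left, and the lower 8 the reverse.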

How the data were processed

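RNA of 5 libraries of sorted cells was compared as deposited by the authors, in RPKM per RefSeq transcript written to 1 decimal, per the file headers. TopHat, bedtools and build mm9 are named, without versions, in the submitters' processing notes. Use of strand, and how reads were split between gene copies, was not given in the sources used here. A single line without a gene symbol was left out. Values of overlapping genes and of families with close copies are uncertain.

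From these values differences were computed on log2(RPKM + 1), a pseudocount of 1 that understates the change of low transcripts. A transcript was compared at a mean of at least 5 RPKM over dF4 and both dF1 libraries, and counted by a distance of at least 1 from the nearer dF1 library. The code of the rule was tried on simulated libraries in which dF4 carried set changes and counting error only, so other differences between libraries were not covered. Lists took the transcript with the highest mean per symbol. Their medians used no filter, while their counts of higher and lower members used the same filter. The depth of dF4 came from 2670 low values, of which 82.5% were whole reads within 0.1; in the other libraries at most 31.8% were. Named were the Ikaros family, the 15 farthest transcripts in each direction, up to 6 members per list with the largest difference or those it is best known by, and up to 6 in each direction with dF4 near wt. Single results for a few list members are not reported here, although the counts and medians include them. Unnamed transcripts, small RNAs and near-identical families were not ranked. The comparison, lists and rules were chosen with earlier results of these data known. Alternatives were other pseudocounts (0.1 and 5), filters, normalizations, distances, and leaving out either dF1 library. Promoters came from RefSeq, build GRCm38.p6, which is not the authors' build; of 8264 compared genes, 6702 had an entry. Python 3.11.15, pandas 2.3.3, NumPy 2.4.6, SciPy 1.17.1 and matplotlib 3.10.9 were used.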

Additional observations from a re-analysis of the deposited data

How the results depend on the processing

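The counts of 776 higher and 776 lower transcripts moved mostly with the filter and the distance. With no filter they were 1967 and 1440, with a mean of at least 20 RPKM 250 and 340, and at a distance of at least 2 log2 units 326 and 241. With the filter on the dF1 libraries alone 419 were higher and 908 lower. Transcripts that passed through dF4 alone then drop out, and others with a low dF4 value, such as Dusp22, come in. A pseudocount of 5 gave 576 and 481, a pseudocount of 0.1 gave 846 and 873, and asking for at least 20 reads gave 602 and 515. Quantile normalization gave 717 and 886 and median centring, which moves dF4 by 0.06, 722 and 844. Leaving out 1 dF1 library gave 834 to 1035 higher and 889 to 920 lower; the nearer library sets the rule, so this can only add transcripts. With wt in place of dF1 the counts were 787 and 785, with the dF4 library shared. Of 29 list medians, the 16 of size 1 or more kept their sign in all 7 alternatives run, and 2 smaller ones did not, those of the NuRD and conventional dendritic cell lists. Their sizes moved with low members: a pseudocount of 5 brought the basophil and mast cell median from 1.06 to 0.32, the megakaryocyte one from 1.45 to 0.47, the stromal one from 1.66 to 0.62, the eosinophil one from 3.28 to 1.72, the erythroid one from 3.80 to 2.39 and the monocyte and macrophage one from 2.36 to 1.51. The immediate early, chemokine receptor and stem medians became 0.74, 0.44 and 0.23. A pseudocount of 0.1 gave 2.56, 3.37, 3.69 and 1.15 for the basophil and mast cell, megakaryocyte, stromal and stem medians. No paired analysis was possible because dF4 is 1 library without a replicate number and the result comes from no test. At about 597000 reads, dF4 values of a few reads carry wide intervals, and a listing at 0 does not show absence.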

Other observations

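Il9r, the interleukin 9 receptor, lies near the alpha globin genes in the annotation of build GRCm38, with 5 genes between it and Hba-a1. It was at 0.3 and 0.6 RPKM in dF1, 0.1 and 0.1 in wt and 34.1 in dF4. The next genes in the annotation, in order, gave 22.8 and 22.3 RPKM in dF1 and 47.7 in dF4 for Snrnp25, and 0.3 and 0.4 in dF1 and 4 in dF4 for Rhbdf1. Mpg was at 10 and 10.9 RPKM in dF1 and 11.1 in dF4, and Nprl3, which holds the globin enhancers in its introns, at 13.8 and 14 in dF1 and 16 in dF4. Hba-x was listed at 0 in dF1, wt and dF4, and Hba-a1 followed at 1 and 4.3 RPKM in dF1 and 34.3 in dF4. Nsg2, the first gene with values on the other side of Il9r but not adjacent to it, was at 9.5 and 10.1 RPKM in dF1 and 35.1 in dF4. These neighbours were looked up after the value of Il9r was seen, and no test was made.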
